A study of Homo sapiens with 2 samples.

Results

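The PYHIN genes encode interferon-inducible proteins that join a pyrin domain, a protein interaction module, to a DNA-binding HIN domain. The 4 members described here, PYHIN1, IFI16, AIM2 and MNDA, were measured on Affymetrix exon arrays in SUDHL6 and HT, established human cell lines of diffuse large B cell lymphoma. They were taken by name, through probe sets whose platform annotation gives exactly 1 gene, and each had 1 such probe set (4 of 22011 probe sets, 4 of 14232 genes with a value). The members were chosen by their log2 differences between SUDHL6 and HT on these same arrays, so those differences are a description and carry no test. Each line was a single untreated culture kept in RPMI medium containing serum and antibiotics, and was represented by 1 array of total RNA. The series title ties the arrays to a compound that inhibits PRC2, a histone-methylating Polycomb complex. With 1 array for each line, no value has a replicate error, no p-value exists, and the number of arrays limits the precision.

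All values are log2 expression values as deposited, and a difference is the SUDHL6 value minus the HT value, so that 1 unit is a 2-fold change. Differences were taken between lines for the same probe set. Where levels of several genes are ranked or summed, this is a description only. The background level, an estimate of the signal of unexpressed genes, was the 95th percentile of 225 olfactory receptor genes, at 3.81 in SUDHL6 and 4.11 in HT. To count as different, a gene needed a difference of at least 1 and a value at or above background in its higher line. By this rule 3.5% of the 14232 genes (498) were higher in SUDHL6 and 4.62% (657) were higher in HT, an order that turned under quantile normalization (576 and 568) and loess (584 and 562). The differences of the olfactory receptor genes ran from -1.03 to 1.26 in their central 95%, the nearest available measure of error for dim genes. Of 9 B cell marker genes with a value, all 9 reached the background level in at least 1 line, and BANK1 was below it in HT (2.52). Of all 14232 genes, 9405 reached it in their higher line. Reaching this level is therefore common and does not by itself establish the labelled cell type.

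In outline, AIM2 binds double-stranded DNA in the cytosol and assembles an inflammasome with the adaptor PYCARD (ASC) and caspase-1, which matures interleukins and opens pores in the membrane through gasdermin D. IFI16 binds DNA in the nucleus and the cytosol and works with the STING pathway, which leads to interferon production, and it also acts as a regulator of transcription. PYHIN1 (also called IFIX) is a nuclear member known from lymphocytes and from work on the ubiquitin ligase MDM2. MNDA, the myeloid cell nuclear differentiation antigen, is known from granulocytes and monocytes and, among B cells, from marginal zone cells and the lymphomas that resemble them.

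PYHIN1, IFI16 and AIM2 were higher in SUDHL6 than in HT, each by more than 2 log2 units, while MNDA was under the background level on both arrays. Thus 3 of the 4 genes were counted as higher in SUDHL6 and 0 as higher in HT, beside 3.5% and 4.62% of all genes. Since this contrast chose the group, nothing is read from that count. The plot of the values of the family by line shows the 3 separated pairs and the coinciding pair of MNDA.

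**Figure D1:**
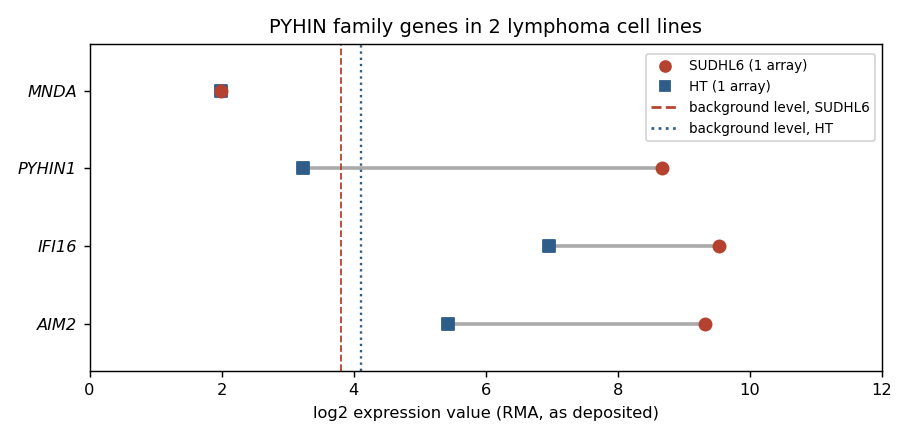
Log2 expression values of the 4 PYHIN genes (x axis) in SUDHL6 (circles) and HT (squares), 1 array each, with the background level of each line as a vertical line. PYHIN1 (8.66 and 3.23), IFI16 (9.53 and 6.95) and AIM2 (9.31 and 5.43) lie to the right in SUDHL6, and both points of MNDA lie at 1.997.

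PYHIN1 had a value of 8.66 in SUDHL6 against 3.23 in HT, a difference of 5.43. Of all 14232 genes, 9 reached the background level with at least this excess in SUDHL6, PYHIN1 included. Its HT value lay 0.88 below the background level of that line, so the fold was computed against the background level and is a lower bound, at least 23.4-fold. PYHIN1 therefore crossed the background level in SUDHL6 and not in HT. A value below that level does not show that the gene was silent. In RNA of a whole culture, more cells using the gene and more RNA per cell cannot be told apart.

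AIM2 had 9.31 in SUDHL6 against 5.43 in HT, a difference of 3.88 or 14.7-fold. Both values were above the background level, by 5.50 in SUDHL6 and by 1.32 in HT. Among the 8179 genes above the background level in both lines, where the difference is measured on both sides, AIM2 had rank 2 by excess in SUDHL6. That set leaves out genes whose HT value lay below the background level. Of all 14232 genes, 35 reached the background level with at least this excess in SUDHL6, AIM2 included.

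IFI16 had 9.53 in SUDHL6 against 6.95 in HT, a difference of 2.58 or 5.97-fold. It was the member furthest above the background level of HT, by 2.84, and had rank 15 by excess in SUDHL6 among the same 8179 genes. Of all 14232 genes, 100 reached the background level with at least this excess, IFI16 included. The difference of IFI16 minus that of AIM2 was -1.303 on the log2 scale, and that of PYHIN1 minus that of AIM2 was 1.55. The lower bound of PYHIN1 also exceeded the fold of AIM2. With 1 array a line, these gaps between the members could not be set against an error. Values of separate exons were not analysed here.

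MNDA was deposited with the same value on both arrays, 1.997 (difference 0.00). It was 1.82 below the background level of SUDHL6 and 2.12 below that of HT. Exactly equal values on the 2 arrays occurred at 681 probe sets (3.09%), and at 541 of the 14232 genes, of which 353 lay below the background level in both lines. The MNDA value therefore gives no difference in either direction above the background level.

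**Figure D2:**
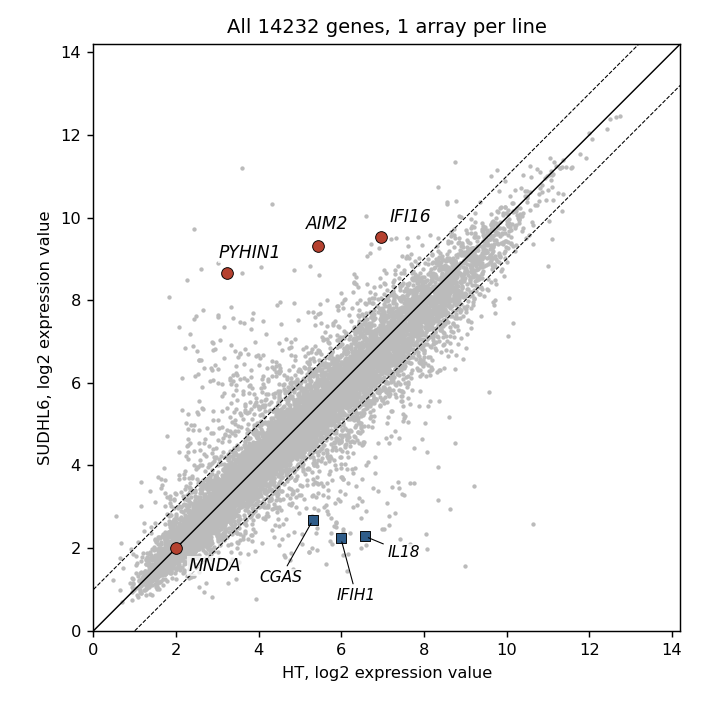
Log2 expression values of all 14232 genes in HT (x axis) and SUDHL6 (y axis), 1 array each, with the line of equality (solid) and differences of 1 either way (dashed). PYHIN1, AIM2 and IFI16 (circles) lie above the upper dashed line and MNDA on the line of equality, while IL18, IFIH1 and CGAS (squares) lie below the lower dashed line.

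The members are neighbours on chromosome 1, in the order MNDA, PYHIN1, IFI16, AIM2 in the RefSeq gene table (assembly GRCh38.p14). PYDC5, a gene for a pyrin-only protein, starts beside IFI16 and was not analysed here. The 3 genes that differed between the lines are thus adjacent among genes with a value. Of the 15 genes with a value nearest on each side, 30 in all, 0 were counted as higher in SUDHL6 and 1 as higher in HT, beside 3.5% and 4.62% of all genes. Their median difference was 0.09, against -0.04 over all genes. The plot of differences along the chromosome shows this step.

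**Figure D3:**
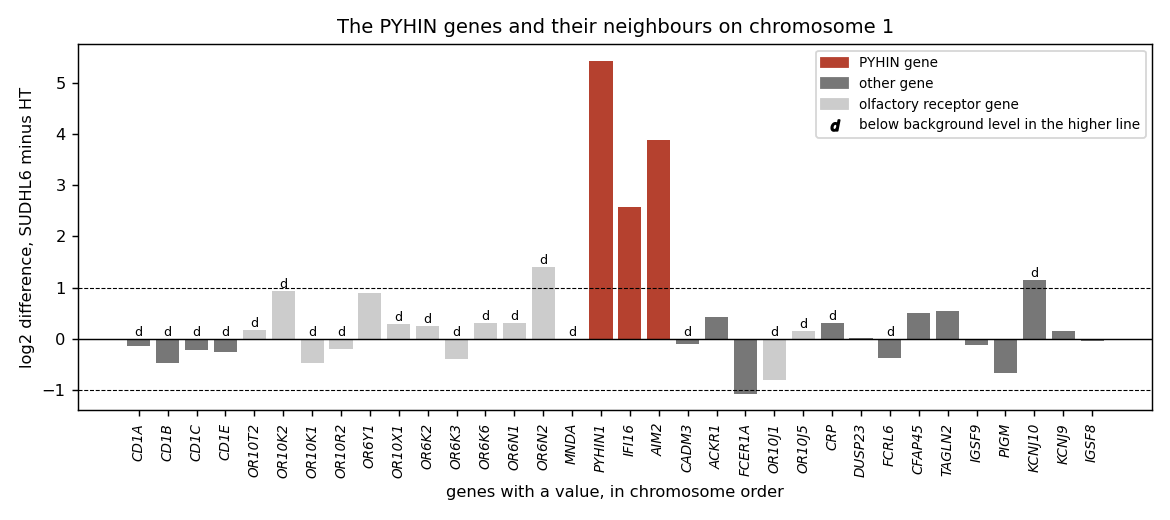
Log2 difference, SUDHL6 minus HT, of the 4 PYHIN genes and the 15 genes with a value on each side, in chromosome order (x axis), with dashed lines at 1 and -1; "d" marks genes whose higher value is below the background level. Bars of PYHIN1 (5.43), IFI16 (2.58) and AIM2 (3.88) stand together, and all 30 neighbours lie between -1.07 and 1.40.

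On the MNDA side the nearest gene with a value was OR6N2, an olfactory receptor gene, at 3.27 in SUDHL6 and 1.86 in HT, below the background level in both lines. Of the 15 genes on that side, 1 reached the background level in its higher line, and most of them are olfactory receptor genes that also entered the background level. On the AIM2 side the nearest was CADM3, a cell adhesion gene, at 3.86 and 3.97, and 9 of 15 reached the background level. FCER1A, the alpha chain of the IgE receptor, was the neighbour counted as different, at 4.50 in SUDHL6 and 5.57 in HT (2.10-fold higher in HT). TAGLN2, an actin-binding protein gene that was chosen after its values were seen, stood at 8.63 and 8.08, a difference of 0.55. The differences of PYHIN1, IFI16 and AIM2 exceeded those of all 30 neighbours in size, but 20 of the 30 did not reach the background level.

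Over 13730 protein-coding genes with a value and a place on the autosomes or chromosome X, PYHIN1, IFI16 and AIM2 formed the 1 run of at least 3 consecutive genes that were all higher in the same line by at least 2. A further 12 runs held 2 genes, among them FCRL3 and FCRL2, Fc receptor-like genes of B cells on the same chromosome. FCRL2 lies 19 genes with a value before MNDA, and it stood at 6.51 in SUDHL6 and 4.41 in HT. FCRL3 was at 7.85 and 3.32. At a difference of at least 1 there were 24 runs of at least 3 genes, the longest of 7 genes and higher in HT. Chromosome 1 as a whole had 41 of 1401 genes (2.93%) higher in SUDHL6 and 42 (2.998%) higher in HT. The run length and its threshold were chosen after the values were seen. Copy number was not measured in these files.

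The upstream sequences of the members were compared because adjacent genes of the family differed together, while MNDA, below the background level, gave no measured difference. RefSeq windows (GRCh38.p14) were found for all 4 genes, with 2 for IFI16, and the 250 bases before each transcript start were aligned locally. PYHIN1 and the second IFI16 window aligned over 70 base pairs with 61 identical (87.1%). The stretches are shown 5′ to 3′ on the plus strand, with capitals for bases that are identical in the pair. That of PYHIN1 (chr1:158931455-158931524) runs from 97 to 28 bases before the start, and that of IFI16 (chr1:159009826-159009899) from 81 to 8.
PYHIN1: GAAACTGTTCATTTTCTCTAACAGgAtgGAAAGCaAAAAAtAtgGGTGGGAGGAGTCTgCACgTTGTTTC
IFI16: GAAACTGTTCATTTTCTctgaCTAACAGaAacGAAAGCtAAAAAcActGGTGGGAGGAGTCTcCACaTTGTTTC

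MNDA and PYHIN1 also shared a stretch, further upstream, of 69 aligned base pairs with 57 identical (82.6%). It lies 243 to 174 bases before the start of MNDA (chr1:158831108-158831177) and 224 to 152 before that of PYHIN1 (chr1:158931328-158931400), both on the plus strand, with capitals as above.
MNDA: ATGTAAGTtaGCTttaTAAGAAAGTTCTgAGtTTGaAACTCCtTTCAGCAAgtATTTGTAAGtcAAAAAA
PYHIN1: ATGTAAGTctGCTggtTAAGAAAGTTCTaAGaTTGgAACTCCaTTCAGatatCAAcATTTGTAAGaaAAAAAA
MNDA and the second IFI16 window shared 74 aligned base pairs with 56 identical (75.7%). In each of these 3 pairs, 0 of 35111 windows of other genes aligned as well with either member. The first IFI16 window had no such match: its best alignment, with PYHIN1, had 11 identical bases. Of the other windows, 18399 aligned with this IFI16 window at least as well. Which IFI16 start the lines used was not analysed here. AIM2 also had no such match: its best alignment, with the second IFI16 window, was 10 identical bases. Of the other windows, 6510 aligned with AIM2 at least as well. AIM2 was thus counted as different and had no such match. MNDA had such matches, but its values lay below the background level and give no measured difference. Whether the upstream sequence bears on the differences was not tested.

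The core of the interferon-stimulated response element, searched as GAAANNGAAA (GAAA, any 2 bases, GAAA) on both strands, was found upstream of AIM2 and MNDA and in 3.02% of all 35116 windows of this length. In AIM2 the match lies 190 to 181 bases before the start on the opposite strand of the window, and in MNDA 85 to 76 bases before it. The surrounding bases are shown with the match in capitals, for AIM2 on the minus strand (chr1:159076927-159076976) and for MNDA on the plus strand (chr1:158831246-158831295).
AIM2: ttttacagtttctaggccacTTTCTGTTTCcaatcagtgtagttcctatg
MNDA: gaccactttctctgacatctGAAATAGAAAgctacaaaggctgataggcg
The letters of a gamma-activated site (TTCNNNGAA, in 6.57% of windows) and of a composite site for ETS and interferon regulatory factors (GGAANNGAAA, in 2.41%) were in none of the 5 windows. The core recognised by PU.1 (GAGGAA, in 23.6%) was found in MNDA, and TATAAA (in 10.7%) in MNDA and the second IFI16 window. No matches overlapped. A match of letters is a description of the sequence, and no factor binding was measured.

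Among the partners through which AIM2 acts, both directions occurred. Of 19 genes with a value in the list of the AIM2 inflammasome and pyroptosis, 10 reached the background level. Of the 19, 1 was higher in SUDHL6 and 2 were higher in HT, beside 3.5% and 4.62% of all genes. With so few genes, nothing is read from these counts. The counts of the lists that follow stand beside the same shares. The median difference over the 19 was 0.00, beside -0.04 over all genes. IL18, the gene of a cytokine that caspase-1 matures, had 2.29 in SUDHL6 against 6.57 in HT and was at least 6.77-fold higher there. NEK7, a kinase that takes part in activation of the NLRP3 inflammasome, was at 5.83 and 7.24 (2.66-fold higher in HT). NLRC4, the scaffold of another inflammasome, was at 4.05 and 3.03, close to the background level, and raising values to the background level ended its call.

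The following genes were chosen after their values were seen, for their place in the pathway. PYCARD, the adaptor of AIM2, stood at 4.62 in SUDHL6 and 4.53 in HT. GSDMD, the pore-forming gasdermin, was at 4.72 and 4.82. IL1B was below the background level in both lines. CASP1 had no probe set of its own. A probe set it shares with CARD16, a caspase-1 regulator, was at 1.23 in SUDHL6 and 4.48 in HT, and one it shares with CARD17P at 1.55 and 3.08. The probe set shared with CARD16 was close to the background level in HT (4.11) and below it in SUDHL6. The probe set shared with CARD17P was below the background level in both lines. AIM2 was thus higher in SUDHL6, and IL18 was higher in HT. The probe set shared by CASP1 and CARD16 was also higher in HT, with the limit just given. With probe sets naming several genes included, 4 genes of the list instead of 2 were higher in HT.

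**Figure D4:**
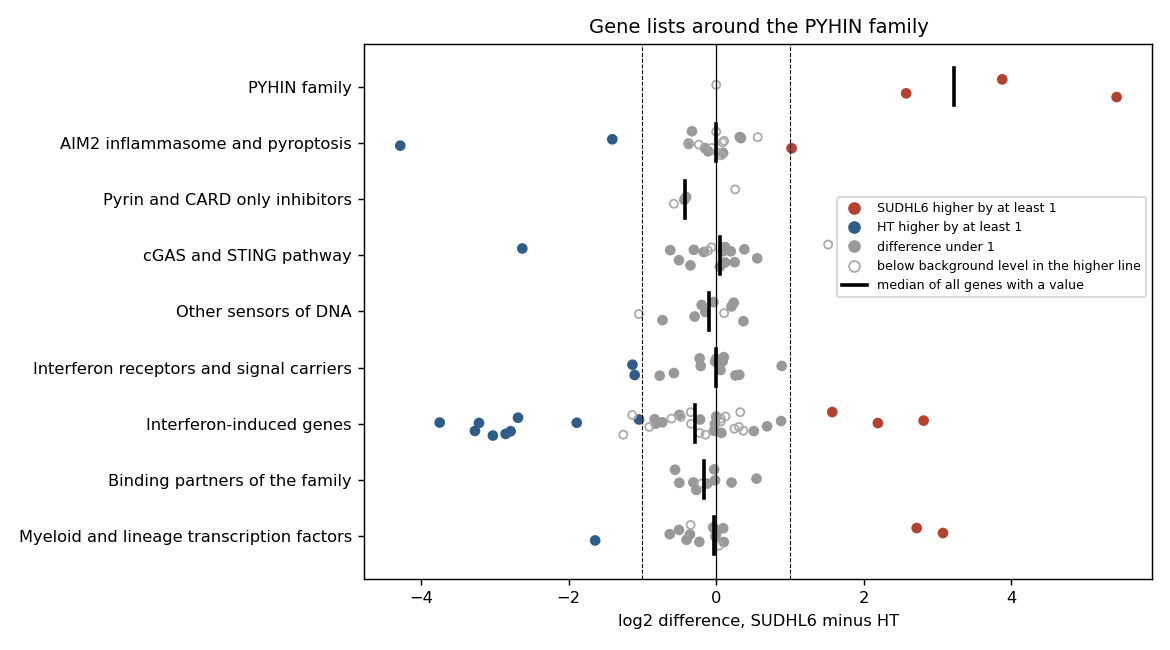
Log2 difference, SUDHL6 minus HT (x axis), of each gene with a value in 9 lists (rows), with the median of each list as a black bar and dashed lines at 1 and -1; vertical scatter within a row has no meaning. Filled points reached the background level. The median of the PYHIN genes is 3.23 and those of the other lists lie between -0.42 and 0.05.

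The list of inflammasome inhibitors gave few measured differences. PYDC1 (3.01 in SUDHL6 and 3.59 in HT) and CARD18 (2.14 and 1.88), chosen after their values were seen, were below the background level in both lines. Of 4 genes of pyrin-only and CARD-only inhibitors and related genes with a value, 2 reached the background level and 0 were counted as different, with a median of -0.42. CARD8, a regulator of caspase-1, stood at 6.51 and 6.92. SERPINB9, an inhibitor of granzyme B, stood at 6.72 and 7.15. The other 4 listed genes, PYDC5 in the PYHIN block among them, had no probe set of their own. As given above, the probe set that CARD16 shares with CASP1 was higher in HT, but close to the background level there. With such probe sets included, 1 gene of the list was higher in HT.

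In the cGAS and STING pathway, with which IFI16 works, the other DNA sensor went the opposite way. CGAS, which makes the messenger that activates STING, had 2.68 in SUDHL6 against 5.31 in HT and was at least 2.82-fold higher there. It was the 1 gene counted as different among 17 with a value, of which 14 reached the background level, and the median was 0.05. STING1 was at 4.53 and 4.49 and the kinase gene TBK1 at 7.78 and 8.41, both chosen after their values were seen. The interferon gene IFNB1 was below the background level in both lines. A probe set shared by SAMHD1, a nucleotide hydrolase that limits cytosolic DNA, and TLDC2 was at 7.55 and 8.76.

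The list of other DNA sensors had 0 genes counted as different among 10 with a value, 8 of which reached the background level, and a median of -0.09. HNRNPA2B1, a nuclear RNA-binding protein also described as a sensor of viral DNA, stood at 11.35 and 11.14. PRKDC, the catalytic subunit of the DNA-dependent protein kinase, was at 9.05 and 8.81. The binding partners of PYHIN proteins likewise had 0 among 10 (9 reaching the background level) and a median of -0.16. Among them MDM4, a relative of MDM2, stood at 8.81 and 8.27, and RB1, the retinoblastoma gene, at 7.77 and 8.33. MDM2, linked to PYHIN1, was at 7.61 and 7.40 (chosen after its value was seen). With probe sets naming several genes included, 1 binding partner was higher in SUDHL6 and 1 of the other DNA sensors was higher in HT.

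PYHIN genes are interferon-inducible, and a list of other interferon-induced genes held differences in both directions. Of 40 genes with a value, 24 reached the background level. Of the 40, 3 were higher in SUDHL6 and 9 in HT, beside 3.5% and 4.62% of all genes, and the median was -0.28. PARP9 and DTX3L, both among the 9, are consecutive genes on chromosome 3, so the 9 are not all separate observations. Whether interferon bears on the differences of the PYHIN genes was not tested. The largest differences were those of IFIH1, a sensor of double-stranded RNA (2.24 in SUDHL6 against 5.99 in HT, at least 4.51-fold), and PARP14, an ADP-ribosyltransferase (3.01 and 6.28, at least 5.53-fold). PARP9, a partner of DTX3L (2.64 and 5.86), and SAMD9L, an antiviral growth inhibitor (2.36 and 5.39), were also higher in HT. The 3 higher in SUDHL6, chosen after their values were seen, were MX2, an antiviral GTPase (6.20 and 3.38), SP110, a nuclear body protein (8.18 and 5.98), and OAS2, a sensor that makes oligoadenylate (5.002 and 3.43). The calls of OAS2 and, in HT, of IFIT3 and IFIT5 were lost when values were raised to the background level. Because PYHIN1, IFI16 and AIM2 were chosen by their differences, nothing is read from setting their direction beside this list.

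The receptors and signal carriers of interferon all reached the background level in their higher line, 14 of 14 with a value, and had a median of -0.01. JAK1, the kinase shared by the receptors of type I and type II interferon, stood at 7.75 in SUDHL6 and 8.89 in HT (2.20-fold higher in HT), and JAK2 at 4.22 and 5.32 (2.15-fold). The other 12 differed by less than 1. Of these, the interferon regulatory factor gene IRF2 (7.91 and 7.02) passed a difference of 1 under quantile normalization and loess.

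Among 16 lineage transcription factors, 14 reached the background level, with 2 higher in SUDHL6, 1 higher in HT and a median of -0.03. IRF4, which drives plasma cell formation, was at 6.65 and 3.93, and BACH2, a repressor of plasma cell differentiation, at 6.996 and 3.92. EBF1, an early B cell factor, was at 6.54 and 8.18 (3.12-fold higher in HT). SPI1, which encodes PU.1, a factor of myeloid and B cells, was at 4.92 and 5.27 (chosen after its values were seen).

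Markers of the other cell types known for these genes did not differ by 1 or more. In the myeloid list, 3 of 12 genes with a value reached the background level and 0 were counted as different. Its values, those below the background level included, were each taken as 2 to the power of the log2 value and summed. The sum was 163 in SUDHL6 and 185 in HT. Its highest genes were CD68, a lysosomal protein gene (5.53 and 5.95), and ELANE, neutrophil elastase (4.84 and 5.23), while CD14, LYZ and CSF1R were below the background level in both lines. In the T cell list, 5 of 14 reached the background level and 0 were counted as different, with sums of 196 and 253. LCK, a T cell kinase, stood at 5.65 and 6.62, CD7 at 5.49 and 5.73, and CD3D, CD3E and CD3G were below the background level. In the NK cell list, 4 of 9 reached it and 0 were counted as different, with sums of 126 and 122, with NKG7 at 4.91 and 5.30 and NCR3 at 4.83 and 4.40. Of these 3 marker lists, 0 genes were counted as higher in SUDHL6, beside 3.5% of all genes. Most of their genes did not reach the background level, so nothing is read from that count.

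Markers of B cell subsets, among which MNDA is known from marginal zone cells, differed in both directions. In the list of marginal zone and memory B cell markers, 8 of 11 genes with a value reached the background level, 2 were higher in SUDHL6 (FCRL3 and FCRL2) and 1 in HT, with a median of 0.08. CR2, the complement receptor CD21, stood at 2.52 in SUDHL6 and 5.86 in HT. In the B cell list, MS4A1, which encodes CD20, was at 11.33 and 8.75 (6.01-fold higher in SUDHL6), and BANK1, an adaptor of B cell receptor signalling, was at 6.21 and 2.52. The remaining 7 of 9 were under 1, with a median of 0.19.

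The genes whose difference lay nearest to that of each member were found among those reaching the background level, over the 2 arrays. For PYHIN1 they were TMEM154 (5.49), KLHL23 (5.30) and CHPT1 (5.14). For AIM2 they were KCNMB2 (3.89), CYBB (3.87) and ZNF804A (3.90). For IFI16 they were POGLUT2 (2.58), VEGFA (2.58) and SGK1 (2.58). CYBB, the catalytic subunit of the phagocyte NADPH oxidase, stood at 9.37 in SUDHL6 and 5.50 in HT, both above the background level, while for the other 8 of these 9 genes the HT value lay below it. With 2 arrays the likeness is of size alone.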

How the data were processed

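The authors deposited log2 expression values, 1 per probe set and array, made with RMA in the Affymetrix Expression Console, per the submitters' processing notes. RMA corrects background, normalizes arrays and summarises probes, and can compress differences of dim genes. The labels used here state no software version, RMA setting or genome build. No normalization was added. Genes were named from GEO's platform annotation, with symbols updated through gene numbers to RefSeq (GRCh38.p14), which matched 14404 of 14432 probe sets naming 1 gene. A gene with several probe sets took the one with the highest mean.

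The members and gene lists were chosen with earlier results of these data known. Named genes were the members, up to 4 counted genes of each list by size (otherwise the 2 with the highest mean), counted neighbours, the nearest gene on each side of the block and the 3 genes nearest to each member in difference; others are said to have been chosen later. The counting step was checked on simulated data, with noise smaller than the spread of the olfactory receptor differences. Changes were planted only in genes well above the background level, so the finding of changes in dim genes was not checked. Promoter windows were aligned in Biopython 1.88 (match 2, mismatch -3, gap opening -5, gap extension -2), other steps used pandas 2.3.3 and loess statsmodels 0.14.6. Alternatives changed the scaling, the background level, the threshold and the choice of probe sets.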

Additional observations from a re-analysis of the deposited data

How the results depend on the processing

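The count of 3 members higher in SUDHL6 and 0 higher in HT was the same under all 9 alternatives tried. Several of these could not have changed it. The alternatives in the choice of probe sets left every member's values as they were. The 3 differences already exceeded 2, so the threshold of 2 was met in advance. The members were chosen by these differences, so the unchanged count is no support for them. Under quantile normalization the differences were 5.49 for PYHIN1, 2.66 for IFI16 and 3.94 for AIM2, and under loess 5.54, 2.69 and 4.01. Over all genes, 576 were then higher in SUDHL6 and 568 in HT under quantile normalization, and 584 and 562 under loess, so the order of the 498 and 657 genes turned. These scalings moved the median of all genes by 0.04 at most. Raising values to the background level gave 4.55 for PYHIN1, by construction, since its HT value was below that level. The step also moved the median of all genes by -0.26. In place of a spread between replicates, changes were set against 0.63, the SD of the differences of the olfactory receptor genes, and no other member's difference changed by more than this. Without a background level, 2 chromosome neighbours were higher in SUDHL6. At a difference of at least 2, 0 neighbours were higher in HT, and 9 list genes instead of 15 were higher in HT. Of 144 recomputed counts of single lists, 15 moved by over 1.5 times, all of them counts of 4 or fewer. No paired analysis was possible because each line has 1 array. Leaving out an array was likewise not possible. Signal over background limits PYHIN1 in HT and MNDA in both lines.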
